A study of Homo sapiens with 6 samples.

Results

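This account covers 31 genes of glycolysis, the pentose phosphate pathway and pyruvate dehydrogenase control measured by RNA sequencing in OCI-LY8 cells. OCI-LY8 is an established human line from a diffuse large B-cell lymphoma with germinal centre features. The genes were taken by symbol from the deposited table of read counts, which lists 26485 symbols, and all 31 were found. The knockout cells carried a guide RNA against SETD1B and are labelled SETD1B knockout (3 libraries). The control cells carried the non-targeting guide sgNTC1 and are labelled WT (3 libraries, called control here). Both groups were grown in serum-containing RPMI with glutamine, and no other allele or agent is named in the sample labels. SETD1B is a histone methyltransferase that acts on lysine 4 of histone H3. The series' design text asks what SETD1B loss does in a KMT2D mutant line, which it calls OCI-LY19. Each of the 6 samples is labelled OCI-LY8, the name used here. Every library of a group carries the same guide name, and nothing read here says whether cells were clones or pools or whether replicates were separate cultures. The p-values therefore measure the spread between these libraries, which may be technical. What SETD1B loss did and what else differs between the knockout and control populations cannot be told apart.

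Glycolysis splits glucose into pyruvate in the cytosol. Hexokinases trap glucose as glucose 6-phosphate, phosphofructokinases commit it to breakdown, and the enzymes from aldolase to pyruvate kinase release ATP and NADH. Lactate dehydrogenase turns pyruvate into lactate, while pyruvate dehydrogenase passes it to the mitochondrial citric acid cycle, and the PDK kinases switch pyruvate dehydrogenase off. The pentose phosphate pathway branches off at glucose 6-phosphate and yields NADPH and ribose 5-phosphate for nucleotides. Proliferating B cells and lymphomas are known for high expression of these enzymes, many of which are targets of MYC and of the hypoxia factor HIF-1.

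The libraries held 28726108 to 34453249 reads that fell in genes. Values are read counts divided by TMM-scaled library size (CPM), with SD over n = 3 libraries per group. Fold changes are log2 differences, knockout minus control, fitted with edgeR's quasi-likelihood method to 12907 genes, and a gene passed at a Benjamini-Hochberg adjusted p under 0.05. Knockout replicate 3 stood apart: among the 10% of tested genes richest in GC its median log2 deviation from the mean of all libraries was -0.60. The same value was 0.16 and 0.31 in knockout replicates 1 and 2, and 0.01 to 0.10 in the controls. Results are therefore given with and without this library, and with a GC correction, in which the trend of counts on GC content was taken out of each library. SETD1B transcripts held 87.4, 90.2 and 55.1 CPM in the knockouts, against 59.8, 54.8 and 53.8 CPM in the controls, so the count of the targeted gene was not lower in the libraries labelled knockout (log2 0.47, SE 0.18, edgeR adjusted p = 0.14). It passed as higher with DESeq2 (log2 0.48, adjusted p = 0.036), without knockout replicate 3 (log2 0.66, edgeR adjusted p = 8.1e-07) and with the GC correction (log2 0.50, edgeR adjusted p = 1e-05). Counts over the whole gene do not show a small edit of the reading frame, so they do not check the labels, and knockout stands below for the libraries labelled so. All 11 B-cell markers listed, among them CD79A and PAX5, were expressed in both groups, but some differed between them. MS4A1 and FCRLA were lower in the knockouts (log2 -0.77 and -0.21, edgeR adjusted p = 0.0013 and 0.024). PAX5, CD22 and BCL6 were higher (log2 0.66, 0.59 and 0.59, edgeR adjusted p = 0.004, 0.0026 and 0.0042). The rest did not pass with all libraries. The 11 markers summed to 3773.5 to 4480.4 CPM in the knockouts and 3691.1 to 3711.4 CPM in the controls. T and NK cell markers summed to 4.37 to 5.86 CPM in the knockouts and 7.18 to 7.69 CPM in the controls, with CD3D, NCAM1 and KLRD1 at 0 among the 9 present. Most of this sum was CD8A, at 4.58 CPM in the knockouts and 6.69 CPM in the controls (edgeR adjusted p = 0.054). Myeloid markers summed to 4.24 to 5.57 CPM in the knockouts and 9.3 to 11.6 CPM in the controls, with MPO, S100A8 and S100A9 at 0 among the 9 present. The largest of them, ITGAM, had 2.39 CPM in the knockouts and 7.29 CPM in the controls (log2 -1.61, edgeR adjusted p = 7.2e-04). Erythroid markers reached at most 0.0345 CPM in any library. Stromal and epithelial markers summed to 19.6 to 22.5 CPM in the knockouts and 13.5 to 15.4 CPM in the controls, with COL3A1, KRT18 and KRT19 at 0 among 10. Most of this sum was PECAM1, at 17.8 CPM in the knockouts and 13.8 CPM in the controls (log2 0.36, edgeR adjusted p = 0.033). LUM had 66, 59 and 98 reads in the knockouts and 0 in each control (edgeR adjusted p = 9.9e-04). DCN had 14, 13 and 11 reads in the knockouts, against 1, 0 and 0 in the controls (edgeR adjusted p = 0.0036). The part of these sums in the results below was not tested.

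Most of the pathway showed small differences and a lean towards lower values in the knockouts, with 1 increase. Of the 29 members with enough counts to be tested, 4 fell (HK1, PFKM, ALDOC and PGK1), 1 rose (PFKFB4) and 24 did not pass. The 2 untested members, PFKFB2 and ENO2, had 3 to 8 reads per library. Over all tested genes 15.0% passed, 5.71% as higher and 9.33% as lower, against 3.45% higher and 13.8% lower among the members. The share of members that fell lies near the background. The median log2 fold change of the members was -0.10, against -0.01 over all genes, and 22 of 29 members had a negative value. Some abundant members were highest in control replicate 1: ALDOA, ENO1, PKM and LDHA had 835, 1829, 2283 and 1719 CPM there. In control replicates 2 and 3 they had 744 and 736, 1644 and 1650, 2075 and 2067, and 1472 and 1470 CPM. Other members, such as PGD (199, 200 and 198 CPM in the controls), did not follow this. The part of control replicate 1 in the lean was not tested. Knockout and control values did not overlap for 9 members that were lower (HK1, GPI, PFKM, ALDOC, PGK1, ENO1, PDK2, PDHA1 and TALDO1) and 1 that was higher (PFKFB4), while 21.3% of all tested genes were lower and 16.5% higher without overlap. Together the 31 members took 1.42%, 1.53% and 1.48% of all reads in the knockouts, against 1.64%, 1.52% and 1.52% in the controls, so the summed shares of the groups overlapped. In bulk RNA a smaller number of expressing cells and less RNA per cell cannot be told apart.

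**Figure D1:**
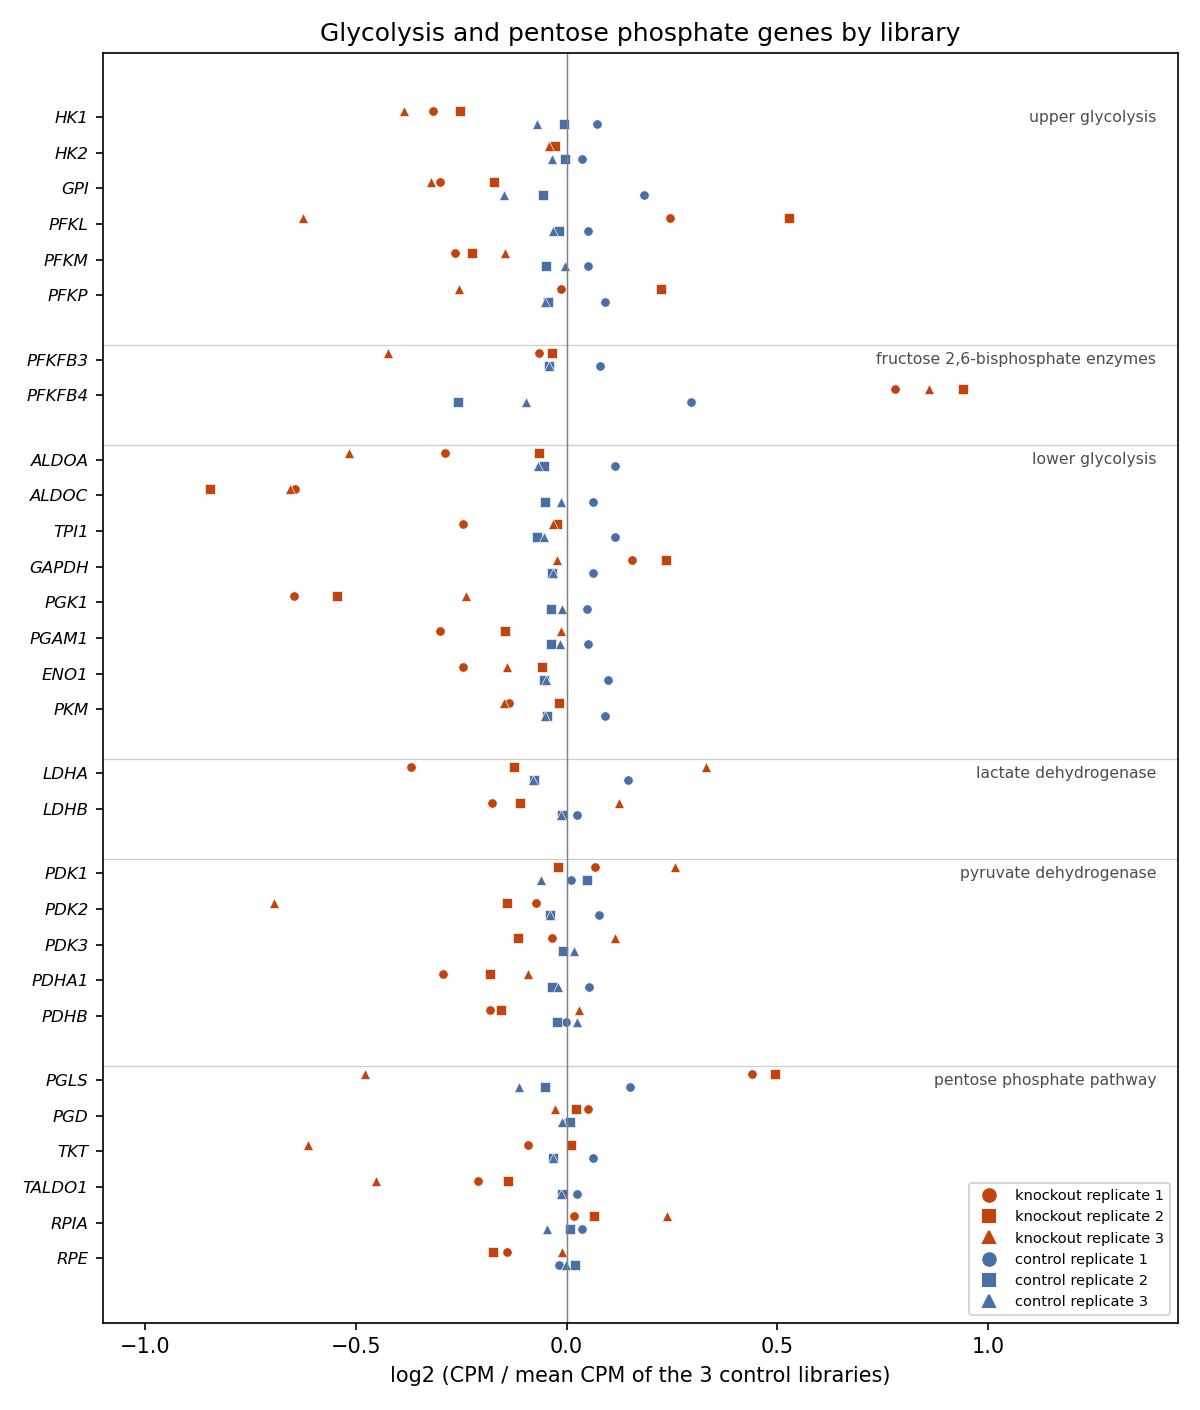
Each point is 1 library: the log2 ratio of its CPM to the mean CPM of the 3 control libraries (horizontal axis) for each of the 29 tested members (vertical axis, grouped by pathway arm). Knockout points lie in the upper row of each gene and control points in the lower row. PFKFB4 stands to the right of its controls and ALDOC and PGK1 to the left, while the triangles of knockout replicate 3 part from the other knockout libraries for PFKL, PGLS, TKT, PDK2 and LDHA.

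Per kilobase of the longest coding transcript, GAPDH was the most abundant member, with 2227 ± 200 CPM per kb in the knockouts and 2040 ± 79.6 in the controls (SD, n = 3 each). LDHB, PKM, ENO1 and LDHA came next, with mean levels of 632 to 957 CPM per kb in the knockouts and 643 to 990 in the controls. Neighbours among LDHA, ENO1 and PKM overlapped within 1 SD in both groups. Within each library, however, PKM lay above ENO1. LDHA lay below both except in knockout replicate 3, where it lay above them, so its place is not resolved. This order rests on 1 transcript length per gene. ALDOA, TPI1, TALDO1 and PGK1 followed, at 132 to 380 CPM per kb in the knockouts and 183 to 462 in the controls. PFKFB4 was the lowest of the tested members, with 2.55 ± 0.14 CPM per kb in the knockouts and 1.4 ± 0.28 in the controls. PGAM1, the only tested phosphoglycerate mutase among the members, had 24.8 ± 2.48 CPM per kb in the knockouts and 27.5 ± 0.88 in the controls, far below the enzymes on either side of it. GENCODE 29 lists 13 pseudogenes named after PGAM1 and 62 named after GAPDH. How reads with several alignments were counted is not stated, so the levels of these genes are uncertain.

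In the first steps of glycolysis 2 of 6 tested members fell and 0 rose, with a median log2 fold change of -0.12. HK1 fell while HK2 did not pass. HK1, the hexokinase of most tissues (chromosome 10, 69269984 to 69401884, hg38), had 55.5, 58.0 and 52.9 CPM in the knockouts, against 72.7, 68.8 and 65.9 CPM in the controls. Every knockout library was below every control library (log2 -0.32, SE 0.06, edgeR adjusted p = 0.017), and the adjusted p ranged from 5.3e-05 to 1.0 over 19 other fits, 14 of which called it. The call was lost without knockout replicate 1 (edgeR adjusted p = 0.079) and without any 1 of the controls (edgeR adjusted p = 0.056 to 0.094). HK2, the inducible hexokinase of many tumours, held 149, 150 and 149 CPM in the knockouts and 157, 153 and 149 CPM in the controls, a log2 difference of -0.04 (SE 0.05, edgeR adjusted p = 0.68). GPI, which converts glucose 6-phosphate to fructose 6-phosphate, averaged 309 ± 17.5 CPM in the knockouts and 371 ± 45.1 CPM in the controls. Its groups did not overlap, but control replicate 1 lay well above the other controls and the gene did not pass (log2 -0.26, edgeR adjusted p = 0.10).

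The 3 phosphofructokinase genes, whose products combine into tetramers that catalyse the committed step, did not follow 1 pattern. PFKM, the muscle-type subunit, had 162, 167 and 176 CPM in the knockouts, against 202, 189 and 195 CPM in the controls. Its groups were separate (log2 -0.21, SE 0.06, edgeR adjusted p = 0.043), yet only 8 of 19 other fits called it, with adjusted p from 8.6e-06 to 1.0. DESeq2 (adjusted p = 0.11) and every fit without 1 library other than knockout replicate 3 (edgeR adjusted p = 0.094 to 0.24) did not, nor did the fit with the replicate number as a block (edgeR adjusted p = 0.12). The exons of PFKM share 628 bases with SENP1 on the opposite strand, and whether counting used strand is not stated. SENP1 itself had a log2 difference of 0.04. PFKL, the liver-type subunit, had 231, 281 and 126 CPM in the knockouts and 202, 193 and 191 CPM in the controls. Knockout replicates 1 and 2 were thus above all controls and replicate 3 below them (log2 0.13, SE 0.26, edgeR adjusted p = 0.80). Without replicate 3 the difference was 0.39 (edgeR adjusted p = 0.0094), and with replicate 3 left out and the GC correction it was 0.21 (edgeR adjusted p = 1.3e-04), whereas the GC correction over all 6 libraries did not bring it past the threshold (log2 0.13, edgeR adjusted p = 0.15). PFKL lies on chromosome 21, where the other 122 tested genes had a median log2 fold change of -0.42. Of its 43 tested neighbours within 2 Mb, 38 were lower and 5 higher (median -0.32). PFKP, the platelet-type subunit, had a mean of 206 ± 34.1 CPM in the knockouts and 206 ± 11.6 CPM in the controls (log2 0.00, edgeR adjusted p = 0.99).

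Among the bifunctional enzymes that make and break fructose 2,6-bisphosphate, the strongest activator of phosphofructokinase, PFKFB4 rose 1.81-fold. PFKFB4 (chromosome 3, 48517684 to 48562015) had 8.64, 9.67 and 9.14 CPM in the knockouts, against 6.18, 4.21 and 4.71 CPM in the controls. Even the highest control lay below the lowest knockout library (log2 0.86, SE 0.15, edgeR adjusted p = 0.01). The call was kept in 17 of 19 other fits, with adjusted p from 4.2e-05 to 0.42, and ended without control replicate 3 (log2 0.81, edgeR adjusted p = 0.059) and in the test against a 1.5-fold change. The exons of PFKFB4 share 289 bases with UCN2 on the same strand, and UCN2 had 0.0992 CPM in the knockouts and 0.0418 CPM in the controls. PFKFB3, the isoform that favours synthesis of fructose 2,6-bisphosphate, had 41.4, 42.3 and 32.3 CPM in the knockouts and 45.8, 42.1 and 42.1 CPM in the controls (log2 -0.16, edgeR adjusted p = 0.37). PFKFB2 was close to the detection limit, with 5, 3 and 5 reads in the knockouts and 7, 4 and 3 reads in the controls. A count of 0 would allow up to 3 reads, or 0.0871 to 0.104 CPM, and this limit covers counting error only.

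In glycolysis from aldolase to pyruvate kinase 2 of 8 tested members fell, ALDOC and PGK1, and 0 rose, with a median of -0.15. ALDOC, the brain-type aldolase (chromosome 17, 28573115 to 28577264), had 12.2, 10.6 and 12.1 CPM in the knockouts, against 19.9, 18.4 and 18.9 CPM in the controls. The gap between the groups exceeded the spread within either (log2 -0.71, SE 0.09, edgeR adjusted p = 0.0022). Of the 5 changed members ALDOC was called most often: 18 of 19 other fits called it, with adjusted p from 4.2e-07 to 0.62, and the exception was the test against a 1.5-fold change. ALDOA, the aldolase that supplied nearly all aldolase transcripts, had 632, 737 and 539 CPM in the knockouts, against 835, 744 and 736 CPM in the controls. Knockout replicate 2 reached the range of the controls and the gene did not pass (log2 -0.28, SE 0.12, edgeR adjusted p = 0.16). It passed as lower without knockout replicate 2 (log2 -0.40, edgeR adjusted p = 0.045), with the GC correction (log2 -0.22, edgeR adjusted p = 0.049) and with that correction and replicate 3 left out (log2 -0.30, edgeR adjusted p = 4.3e-04).

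PGK1, which makes the first ATP of the pathway (chromosome X, 77910739 to 78129296), had 570, 612 and 757 CPM in the knockouts, against 923, 870 and 886 CPM in the controls. All knockout libraries were below the controls, and replicate 3 was the closest to them (log2 -0.47, SE 0.10, edgeR adjusted p = 0.026). Without replicate 3 the difference was larger (log2 -0.60, edgeR adjusted p = 1.5e-07), and 13 of 19 other fits called the gene, with adjusted p from 1.5e-07 to 1.0. Leaving out any other single library ended the call (edgeR adjusted p = 0.071 to 0.11). The annotated span of PGK1 shares 97 exon bases with ATP7A on the same strand, and ATP7A had a log2 difference of 0.26 (edgeR adjusted p = 0.10). Of its 11 tested neighbours within 2 Mb, 8 were lower and 3 higher (median log2 -0.28).

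The other enzymes of these steps did not pass. GAPDH, which reduces NAD while adding phosphate, had 4260, 4502 and 3767 CPM in the knockouts and 3998, 3737 and 3741 CPM in the controls (log2 0.13, SE 0.08, edgeR adjusted p = 0.33). Without knockout replicate 3 its value of 0.20 passed (edgeR adjusted p = 8.3e-04), as did 0.19 with the GC correction (edgeR adjusted p = 0.036). ENO1, the enolase of most tissues, had 1439, 1639 and 1549 CPM in the knockouts, against 1829, 1644 and 1650 CPM in the controls, groups that did not overlap although knockout replicate 2 lay just below the lowest control (log2 -0.15, edgeR adjusted p = 0.22). TPI1, PGAM1 and PKM, which interconvert triose phosphates, shift the phosphate of phosphoglycerate and form pyruvate, had log2 fold changes of -0.10, -0.15 and -0.10 (edgeR adjusted p from 0.28 to 0.49). PGAM1 passed as lower without knockout replicate 3 (log2 -0.23, edgeR adjusted p = 0.0054). With both changes PGAM1, ENO1 and PKM passed as lower (log2 -0.23, -0.24 and -0.16, edgeR adjusted p = 0.001, 5.5e-04 and 8.2e-04). In that fit GAPDH passed as higher (log2 0.11, edgeR adjusted p = 0.0031) and TPI1 did not pass (log2 -0.19, edgeR adjusted p = 0.083). ENO2, the neuronal enolase, had only 8, 5 and 3 reads in the knockouts and 5, 5 and 8 reads in the controls.

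**Figure D2:**
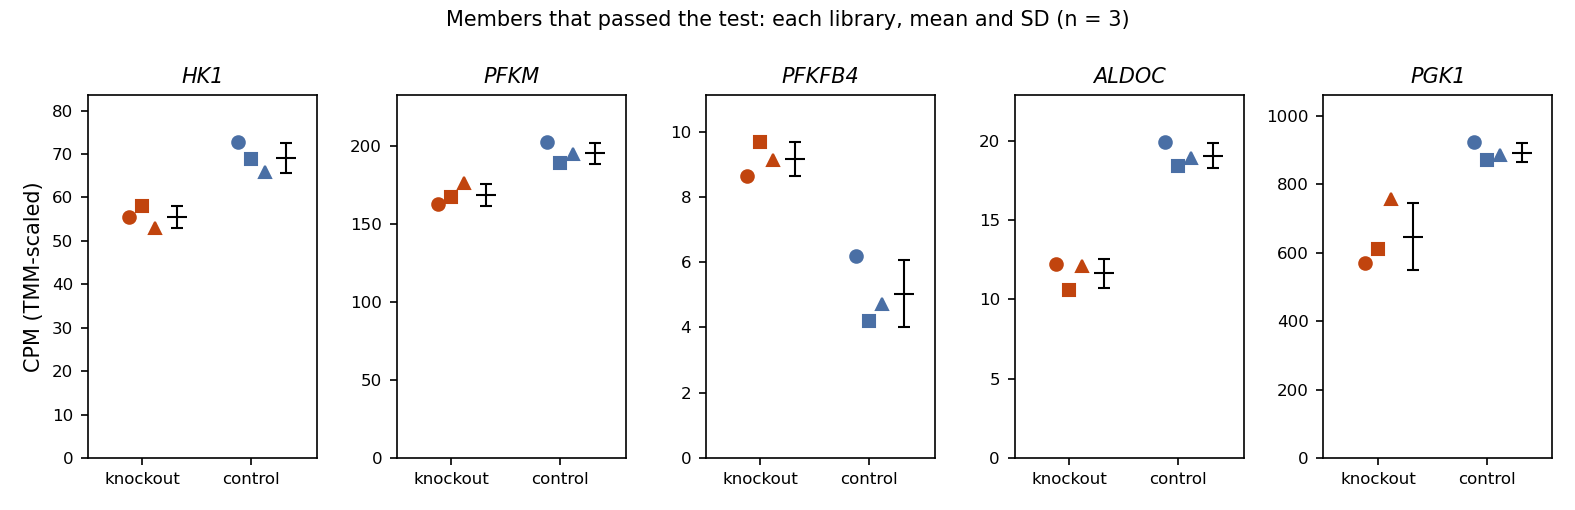
CPM (vertical axes, each from 0) of the 5 members that passed the test, with the 3 knockout libraries left and the 3 control libraries right in each panel. Circles, squares and triangles are replicates 1, 2 and 3, and the bar beside each group is the mean with its SD. In all 5 panels the groups are separate, PFKFB4 being the 1 member with higher knockout values.

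ALDOC, PGK1 and PFKFB4 had the largest fold changes of the members, and the 250 bases before their annotated starts are shown because all 3 windows hold ACGTG or GCGTG, the core of the hypoxia response element bound by HIF-1. Capitals mark these letters on either strand. The sequences are from RefSeq on GRCh38.p14, written 5′ to 3′ in the direction of the gene. They lie at chr17:28576896-28577145 on the minus strand (ALDOC), chrX:78103998-78104247 on the plus strand (PGK1) and chr3:48556804-48557053 on the minus strand (PFKFB4).
ALDOC: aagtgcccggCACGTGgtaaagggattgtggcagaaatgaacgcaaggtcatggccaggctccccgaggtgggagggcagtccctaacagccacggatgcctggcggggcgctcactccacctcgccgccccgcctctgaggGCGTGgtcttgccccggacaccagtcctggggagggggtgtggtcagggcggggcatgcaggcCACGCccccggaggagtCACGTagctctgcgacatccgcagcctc
PGK1: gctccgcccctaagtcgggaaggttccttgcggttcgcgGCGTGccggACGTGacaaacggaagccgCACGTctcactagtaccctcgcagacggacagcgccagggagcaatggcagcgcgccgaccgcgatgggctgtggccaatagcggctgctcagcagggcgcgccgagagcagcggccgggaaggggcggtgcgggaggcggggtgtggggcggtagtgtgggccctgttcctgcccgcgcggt
PFKFB4: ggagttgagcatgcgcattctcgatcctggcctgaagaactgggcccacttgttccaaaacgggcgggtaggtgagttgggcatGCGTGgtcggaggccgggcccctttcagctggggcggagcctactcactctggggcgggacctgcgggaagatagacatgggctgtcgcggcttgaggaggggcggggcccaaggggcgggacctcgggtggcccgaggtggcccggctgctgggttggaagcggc
The ALDOC window held 5 matches, of which the first 2 overlap in CACGTG, an E-box of the kind bound by MYC and MAX. PGK1 had 3 matches and PFKFB4 had 1. So 2 genes that fell and the 1 that rose carry the same letters, while the windows of HK1 and PFKM, which also fell, held 0. Promoters were found for 30 of the 31 members. A core match was present in 55.2% of the 29 tested members (16) and in 57.3% of the 9296 promoters of tested genes with an entry. CACGTG stood in 13.8% of tested members (4) and 9.10% of those promoters. A match describes the letters only, and each gene is represented by 1 of its starts.

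Both lactate dehydrogenase genes had their largest knockout value in replicate 3. LDHA, whose product favours the formation of lactate, had 1202, 1425 and 1954 CPM in the knockouts, against 1719, 1472 and 1470 CPM in the controls. The knockout libraries thus spanned the whole range of the controls (log2 -0.02, SE 0.17, edgeR adjusted p = 0.95). LDHB, the heart-type subunit, had 1347, 1410 and 1659 CPM in the knockouts, against 1549, 1513 and 1508 CPM in the controls (log2 -0.05, edgeR adjusted p = 0.75). Without replicate 3 the difference of LDHB was -0.14 (edgeR adjusted p = 0.0015), while that of LDHA was -0.24 and did not pass (edgeR adjusted p = 0.18).

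Around pyruvate dehydrogenase none of 5 members passed in the edgeR fit to all libraries without the GC correction or in DESeq2, and 1 had an unadjusted edgeR p under 0.05. PDHA1 and PDHB, the catalytic subunits, averaged 124 ± 8.61 and 114.6 ± 9.32 CPM in the knockouts, against 140.6 ± 4.61 and 122.8 ± 2.11 CPM in the controls. Their log2 fold changes were -0.19 (edgeR adjusted p = 0.11) and -0.10 (edgeR adjusted p = 0.39), and both passed as lower without knockout replicate 3 (log2 -0.24 and -0.17, edgeR adjusted p = 7.2e-04 and 0.0018). With the GC correction over all libraries PDHA1 passed as lower (log2 -0.18, edgeR adjusted p = 0.0089). Of the inhibitory kinases, PDK1 had a log2 value of 0.11, PDK3 of -0.01 and PDK2 of -0.28 (edgeR adjusted p = 0.46, 0.96 and 0.30). PDK2 had 17.4, 16.6 and 11.3 CPM in the knockouts, against 19.3, 17.8 and 17.8 CPM in the controls, with replicate 3 the lowest. Its log2 value was -0.11 without that library (edgeR adjusted p = 0.24), whereas it passed as lower with the GC correction (log2 -0.23, edgeR adjusted p = 0.017) and with both changes (log2 -0.21, edgeR adjusted p = 0.022).

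None of the 6 pentose phosphate genes passed in the edgeR fit to all libraries without the GC correction or in DESeq2, and 1 had an unadjusted edgeR p under 0.05. TALDO1, the transaldolase of the non-oxidative branch, came closest: it had 221, 232 and 187 CPM in the knockouts, against 260, 254 and 254 CPM in the controls. Its groups did not overlap (log2 -0.26, SE 0.08, edgeR adjusted p = 0.076), and it passed without replicate 3 (log2 -0.18, edgeR adjusted p = 8.8e-04) and with the GC correction (log2 -0.22, edgeR adjusted p = 2.9e-04). TKT, the transketolase of the same branch, had 286, 307 and 199 CPM in the knockouts and 318, 297 and 298 CPM in the controls, and replicate 3 was the library farthest from the control range (log2 -0.21, edgeR adjusted p = 0.43). Without replicate 3 its value was -0.04 (edgeR adjusted p = 0.44), and it passed as lower with the GC correction (log2 -0.17, edgeR adjusted p = 0.02) and with both changes (log2 -0.11, edgeR adjusted p = 0.0045). PGLS, the lactonase of the oxidative branch, had 30.8, 32.0 and 16.3 CPM in the knockouts, against 25.2, 21.9 and 21.0 CPM in the controls. As with PFKL, 2 knockout libraries lay above the controls and replicate 3 below (log2 0.21, SE 0.24, edgeR adjusted p = 0.64; log2 0.46 and edgeR adjusted p = 3.3e-04 without replicate 3; log2 0.24 and edgeR adjusted p = 0.0095 with the GC correction). PGD, the NADPH-forming dehydrogenase after it, differed little, with 201 ± 5.48 CPM in the knockouts and 199 ± 1.34 CPM in the controls (log2 0.02, SE 0.05). RPIA and RPE, the isomerase and epimerase of ribulose 5-phosphate, had log2 values of 0.11 and -0.11 (edgeR adjusted p = 0.37 and 0.29). RPE shares 837 exon bases with KANSL1L on the opposite strand, which fell (log2 -0.40, edgeR adjusted p = 0.024).

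The balance between isoform genes was measured inside each library as a share of counts per kb, which does not depend on the scaling between libraries. HK2 made up 65.1%, 64.2% and 66.0% of hexokinase transcripts in the knockouts, against 59.9%, 60.6% and 61.1% in the controls, so the groups were separate. PFKFB4 made up 20.8%, 22.4% and 26.2% of the PFKFB transcripts in the knockouts, against 14.5%, 11.2% and 12.4% in the controls. ALDOC supplied 1.6%, 1.2% and 1.86% of aldolase transcripts in the knockouts, against 1.97%, 2.05% and 2.12% in the controls. PDK1 held 10.6%, 10.5% and 11.7% of the PDK transcripts in the knockouts, against 9.88%, 10.2% and 9.48% in the controls. This difference of 1.04 percentage points rests on a PDK1 transcript length of 14193 bases and was 3.19 points in counts not divided by length. These 4 of 9 shares did not overlap between groups. An exact two-sided permutation test gave p = 0.1 for each, the smallest value that 3 against 3 libraries allow, and 0.225 after adjustment over the 9 shares. LDHB stood at 60.6 ± 3.31% of lactate dehydrogenase transcripts in the knockouts and 60.7 ± 1.81% in the controls (SD, n = 3 each). The share of PFKL was 39.1%, 41.1% and 27.1% in the knockouts, against 32.9%, 33.6% and 33.2% in the controls. PFKM had shares of 24.7%, 22.0% and 34.1% in the knockouts and 29.7%, 29.7% and 30.5% in the controls. Shares of 1 total must trade off against each other, and in CPM PFKM ran only from 162 to 176 in the knockouts. PFKP held 37.3 ± 1.37% in the knockouts and 36.8 ± 0.60% in the controls, and ENO2 held at most 0.0149% of enolase transcripts in any library.

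**Figure D3:**
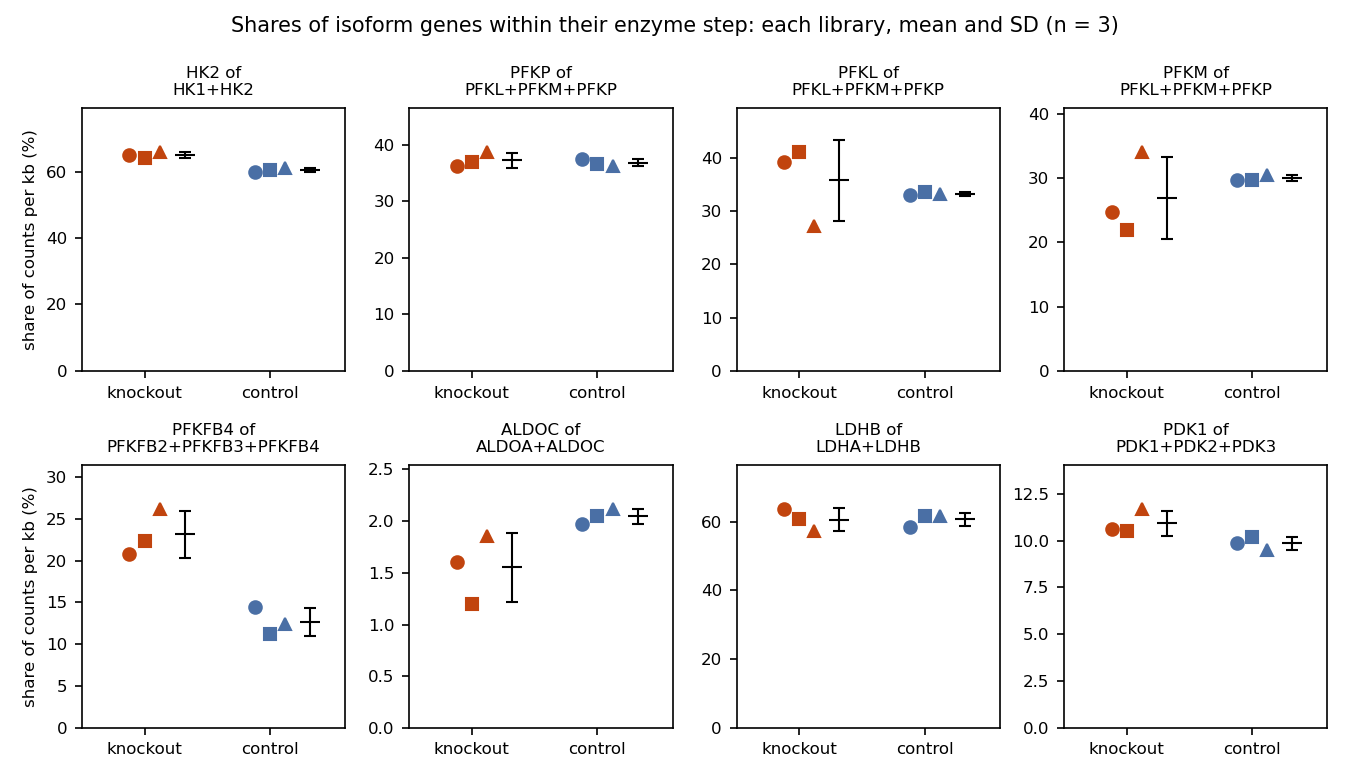
Share of an isoform gene in the counts per kb of its enzyme step (percent, vertical axes from 0), with knockout libraries left and control libraries right in each panel. Circles, squares and triangles are replicates 1, 2 and 3, and bars give the mean and SD (n = 3). The shares of HK2, PFKFB4, ALDOC and PDK1 are separate between the groups, whereas PFKL and PFKM spread widely among the knockout libraries.

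The spread among the knockout libraries followed the GC content of the member. GC content of the longest coding transcript ran from 36.6% (RPE) to 66.0% (PGLS), with a median of 53.1% among the tested members and 48.5% over all tested genes. All 9 members under 50% GC, among them LDHA and PGK1, were higher in knockout replicate 3 than in the mean of replicates 1 and 2, by up to 0.58 on the log2 scale. Of the 14 members above 55%, 10 were lower in replicate 3, down to -0.94 for PGLS and -1.01 for PFKL. Across the 29 members, which share these 3 libraries, the correlation between GC content and that difference was -0.78 (Pearson) and -0.83 (Spearman). For ALDOC, PFKFB4, HK1 and PFKM the difference between replicate 3 and the others was between -0.10 and 0.10, and it was 0.36 for PGK1.

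**Figure D4:**
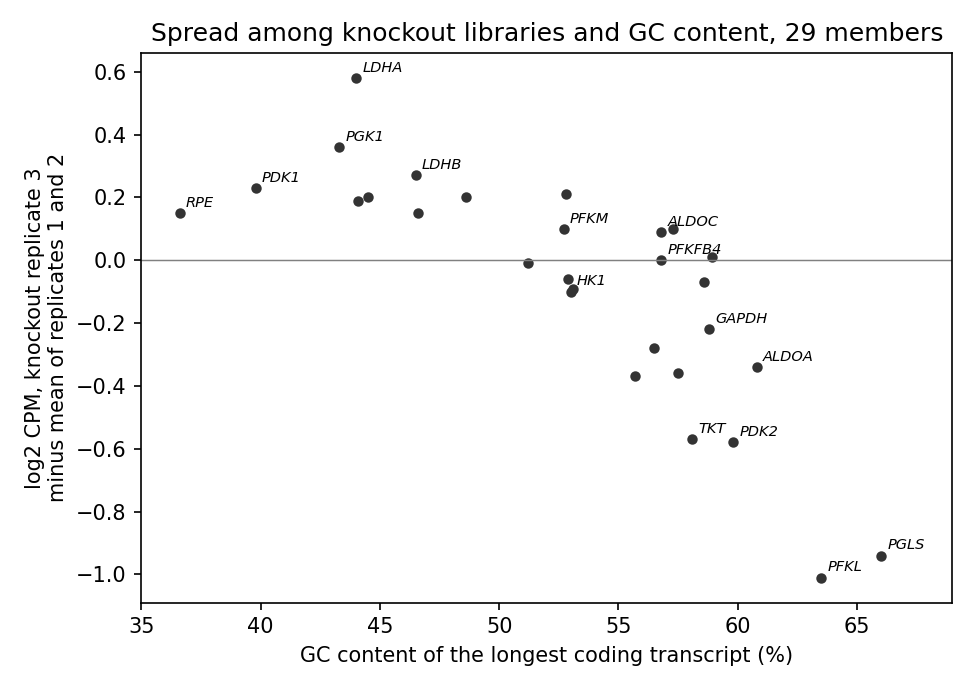
Each point is 1 of the 29 tested members: GC content of its longest coding transcript in percent (horizontal axis) against the log2 CPM of knockout replicate 3 minus the mean of knockout replicates 1 and 2 (vertical axis). Members rich in GC, such as PFKL and PGLS, lie far below 0 and members poor in GC, such as LDHA and PGK1, lie above it.

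Leaving out knockout replicate 3 gave more calls among the members, and over all genes as well. Without it 10 members fell (HK1, PFKM, ALDOC, PGK1, PGAM1, LDHB, PDHA1, PDHB, TALDO1 and RPE) and 4 rose (PFKL, PFKFB4, GAPDH and PGLS), that is 34.5% and 13.8% of the 29, against 22.8% and 21.6% over all genes. With all libraries and the GC correction 10 fell and 3 rose, against 19.5% and 18.0% over all genes. With both changes 15 fell and 4 rose, or 51.7% and 13.8%, against 23.3% and 21.7% over all genes. Those lower here but not without replicate 3 alone were ALDOA, ENO1, PKM, PDK2 and TKT, with GC contents of 58.1% to 60.8%. The correction takes out each library's GC trend, including any that knockout replicates 1 and 2 share against the controls. Without replicate 3 it moved ENO1 from log2 -0.15 to -0.24 and PKM from -0.08 to -0.16. Its part in the share of 51.7% was not tested. The 5 members called with all libraries were called in the same direction in each of these 3 fits, and the median over the members was -0.07 to -0.13, against 0.00 over all genes. Members that passed as lower in all 3 of these fits but not in the first were PDHA1, TALDO1 and RPE, and those that passed as higher were GAPDH and PGLS.

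**Figure D5:**
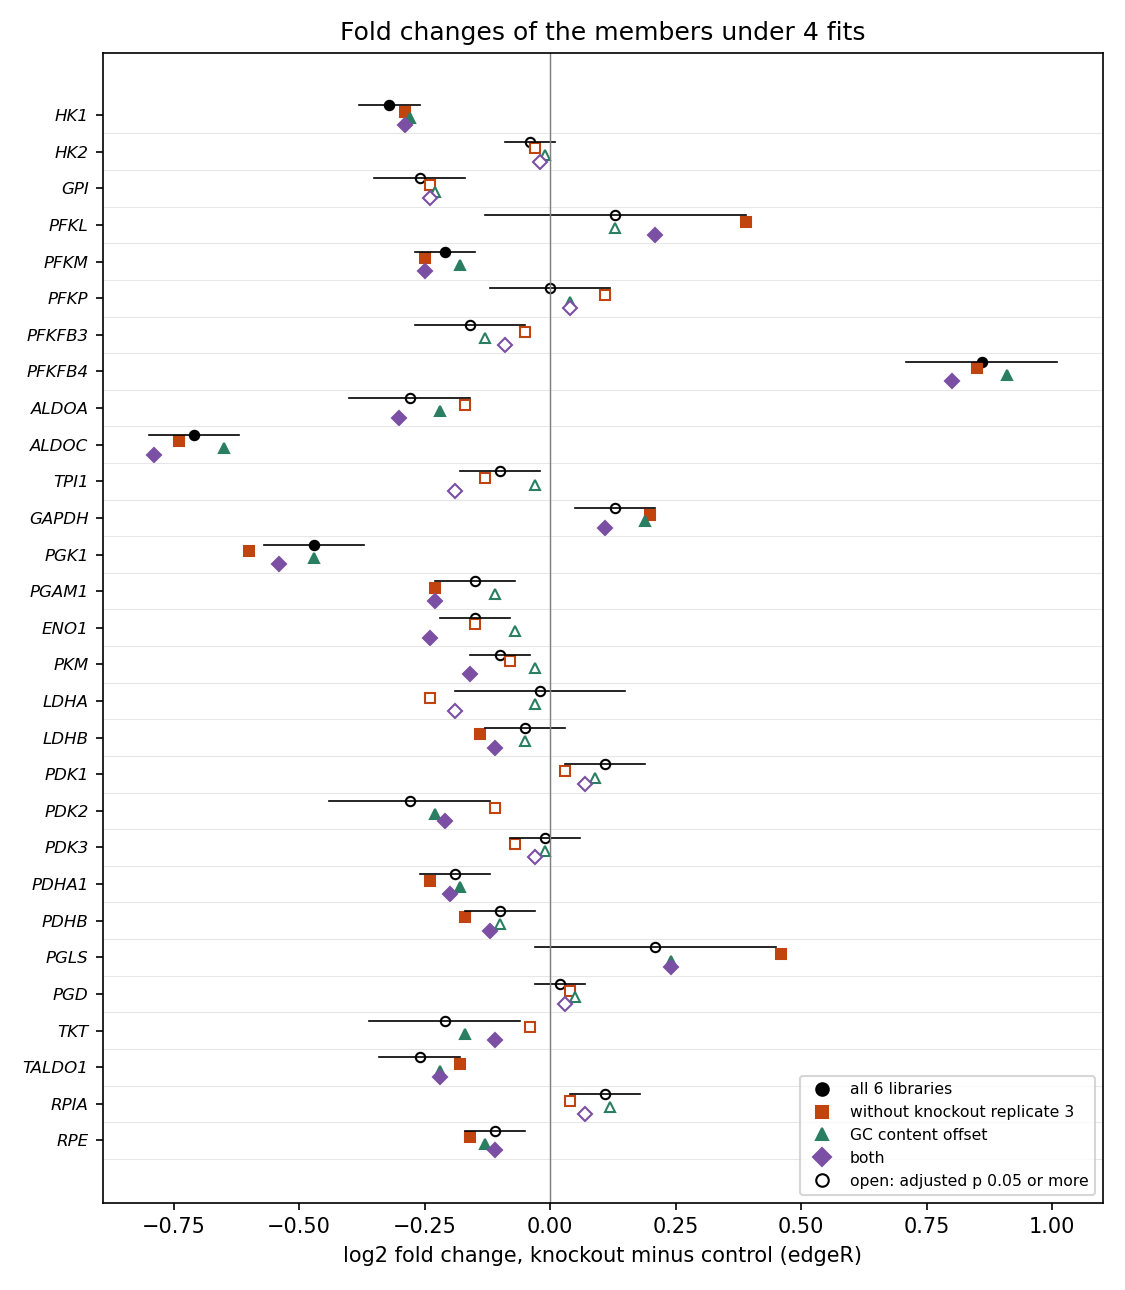
Log2 fold change, knockout minus control (horizontal axis), of the 29 tested members (vertical axis) under 4 edgeR fits: all 6 libraries (circles, with the SE as a line), without knockout replicate 3 (squares), with the GC correction (triangles) and with both (diamonds). Filled symbols passed at an adjusted p under 0.05. HK1, PFKM, PFKFB4, ALDOC and PGK1 are filled in all 4 fits, and the squares of PFKL and PGLS lie far to the right of their circles.

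Other genes of carbohydrate metabolism were read from lists beside the members. Their counts stand against 5.71% higher and 9.33% lower over all tested genes. The same shares were 21.6% and 22.8% without knockout replicate 3, and 18.0% and 19.5% with the GC correction. Among 18 tested further enzymes of glycolysis, gluconeogenesis and the pentose phosphate pathway 1 rose and 2 fell. FBP1, the fructose 1,6-bisphosphatase that reverses the phosphofructokinase step, had 5.02, 4.68 and 4.56 CPM in the knockouts, against 0.87, 1.07 and 1.31 CPM in the controls. It was higher in each knockout library than in any control library (log2 2.14, SE 0.17, edgeR adjusted p = 3.8e-04). TIGAR, a phosphatase of fructose 2,6-bisphosphate that turns flux towards the pentose phosphate pathway, fell to 25.5 CPM in the knockouts, against 31.4 CPM in the controls (log2 -0.30, SE 0.06, edgeR adjusted p = 0.018). PGM2L1, which makes the sugar bisphosphate that activates phosphoglucomutase, fell with a log2 value of -0.60 (edgeR adjusted p = 0.016). The calls of TIGAR and PGM2L1 ended without knockout replicate 1 or without a control (replicate 1, 2 or 3 for TIGAR, 1 or 2 for PGM2L1), with adjusted p of 0.067 to 0.11. Without knockout replicate 3, 3 genes of this list rose and 5 fell, and with the GC correction 3 rose and 6 fell.

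Of 11 tested glucose and lactate transporters 1 rose. SLC2A5, the fructose transporter GLUT5, had 176, 190 and 174 CPM in the knockouts, against 100, 98.2 and 103 CPM in the controls (log2 0.84, SE 0.06, edgeR adjusted p = 1.9e-04). The glucose transporter SLC2A1 averaged 64.0 CPM in the knockouts and 56.1 CPM in the controls (log2 0.19, edgeR adjusted p = 0.18), and passed as higher without knockout replicate 3 (log2 0.25, edgeR adjusted p = 0.0021) and with the GC correction (log2 0.23, edgeR adjusted p = 0.0029). SLC16A3, a lactate exporter, had 9.1, 10.9 and 4.87 CPM in the knockouts, against 16.6, 14.0 and 14.0 CPM in the controls. Its groups did not overlap and it did not pass (log2 -0.84, SE 0.27, edgeR adjusted p = 0.084), though it passed as lower with DESeq2 (adjusted p = 0.0069), without knockout replicate 3 (log2 -0.57, edgeR adjusted p = 0.001) and with the GC correction (log2 -0.82, edgeR adjusted p = 1.4e-04). PDP2, the phosphatase that switches pyruvate dehydrogenase back on, fell as 1 of 8 genes of pyruvate entry, to 17.7 CPM in the knockouts, against 24.7 CPM in the controls (log2 -0.48, SE 0.09, edgeR adjusted p = 0.013). Its call ended without any 1 of the controls (edgeR adjusted p = 0.058 to 0.074). Without knockout replicate 3 the transporters gave 2 higher and 2 lower, and the pyruvate genes 1 higher and 4 lower. With the GC correction these counts were 2 and 2 for the transporters, and 1 and 3 for the pyruvate genes.

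In the citric acid cycle list, which also holds cytosolic enzymes and malic enzymes, 5 of 21 tested genes fell and 0 rose. Over all tested genes 9.33% fell. The median log2 fold change of the list was -0.14. IDH1, the cytosolic NADP-dependent isocitrate dehydrogenase, had 46.3, 45.3 and 49.2 CPM in the knockouts, against 64.9, 62.1 and 65.2 CPM in the controls (log2 -0.45, SE 0.06, edgeR adjusted p = 0.0031). ME2, a malic enzyme, and ACO1, the cytosolic aconitase, both fell with a log2 value of -0.41 (edgeR adjusted p = 0.021 and 0.02), while IDH3B and SDHC were the other genes of the list that fell. Without knockout replicate 3, 14 of these genes fell and 2 rose, and with the GC correction 10 fell and 1 rose, whereas the calls of ME2 and ACO1 ended without any 1 of the other libraries (edgeR adjusted p = 0.053 to 0.11). The hypoxia list outside glycolysis split, with 2 higher and 4 lower of 23 and a median of 0.03. BHLHE40, a repressor induced in hypoxia, fell to 3.05 CPM in the knockouts, against 6.27 CPM in the controls (log2 -1.04, edgeR adjusted p = 0.0025). MXI1, an antagonist of MYC, fell with a log2 value of -0.46 (edgeR adjusted p = 0.0042). BNIP3L, a mitophagy receptor, rose with 0.39 (edgeR adjusted p = 0.0099). The call of BNIP3L ended without control replicate 2 or 3 (edgeR adjusted p = 0.068 and 0.063). Without knockout replicate 3 this list gave 9 higher and 7 lower, and with the GC correction 7 and 7.

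Among 13 tested genes of the hexosamine and glycogen branches 2 fell, PYGB, the brain-type glycogen phosphorylase (log2 -0.77, edgeR adjusted p = 0.017), and GNPNAT1, an acetyltransferase of hexosamine synthesis (log2 -0.36, edgeR adjusted p = 0.022). MGEA5, which encodes the enzyme that removes O-GlcNAc from proteins, rose (log2 0.23, edgeR adjusted p = 0.043). Of 17 genes that make nucleotides from ribose 5-phosphate, IMPDH2, the rate-limiting enzyme of guanine nucleotide synthesis, rose (log2 0.21, edgeR adjusted p = 0.046). GART, a purine synthesis enzyme encoded on chromosome 21, fell (log2 -0.44, edgeR adjusted p = 0.0087), close to the median of -0.42 given above for the genes of that chromosome. None of 10 serine and one-carbon genes and none of 22 regulators passed in the edgeR fit to all libraries without the GC correction or in DESeq2, while 2 and 3 of them had an unadjusted edgeR p under 0.05. The regulators include MYC (384 CPM in the knockouts, 439 CPM in the controls, log2 -0.19, edgeR adjusted p = 0.21). MYC passed as lower without knockout replicate 3 (log2 -0.09, edgeR adjusted p = 0.019) and with the GC correction (log2 -0.16, edgeR adjusted p = 0.019). Without knockout replicate 3 the counts were 2 higher and 4 lower for the serine list and 8 higher and 4 lower for the regulators. They were 1 higher and 7 lower for the hexosamine and glycogen list, and 2 higher and 7 lower for the nucleotide list. With the GC correction they were 1 higher and 4 lower (serine), 5 higher and 6 lower (regulators), 1 higher and 5 lower (hexosamine and glycogen) and 2 higher and 2 lower (nucleotides). The call of PYGB ended without any 1 control, and that of GART without replicate 1 of either group. The call of MGEA5 ended without knockout replicate 1 or any 1 control, and those of GNPNAT1 and IMPDH2 without any 1 library other than knockout replicate 3 (edgeR adjusted p = 0.051 to 0.19).

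The position of the members was set beside their fold changes. The tested genes within 2 Mb of HK1, PFKM, PFKFB4 and ALDOC had median log2 fold changes of -0.05, 0.01, -0.01 and -0.01, over 31, 48, 83 and 49 genes. The chromosomes of the members other than chromosome 21 had medians from -0.02 to 0.03.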

How the data were processed

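Poly(A) RNA of OCI-LY8 cells was made into 6 strand-marking libraries, per the labels' protocols. Tools named in the submitters' processing notes are HISAT2, featureCounts, DESeq2, Trimmomatic and CASAVA 1.8, and the build is hg38. Which annotation was counted, and how strand and multiple alignments were handled, is not stated. The authors deposited whole-number read counts per gene, which were used as they stand. The authors also deposited log2 values for 12029 genes, each equal to the log2 of a count times 1 factor per library, and this table served for an alternative only. The count table has 0 per-sample columns that were not used.

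The main test was edgeR 4.0.16 in R 4.3.3: filterByExpr, TMM, a robust quasi-likelihood fit on group alone, and adjustment after Benjamini-Hochberg over 12907 genes. Each SE was taken from the fold change and its F statistic. The fit was also run on simulated counts, which held no library that departed with GC content. That run therefore says nothing about the effect of knockout replicate 3. Alternatives were other scalings and filters, DESeq2 1.42.0, limma-voom and limma 3.58.1 on the deposited log2 values, the replicate number as a block, a GC correction, leaving out each library, an adjusted p of 0.01 and a test against a 1.5-fold change. On a check of duplicates, replicate pairs differed by more than counting noise (smallest chi-square per degree of freedom 1.83).

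Positions, transcript lengths and GC content came from GENCODE 29 on the same build, with 23900 symbols matched directly, 716 through another symbol and 1869 not matched. Length and GC content are those of the longest coding transcript. Every member is accounted for, members that passed and isoform pairs are given by library, and of each further list up to 3 changed genes of at least 1 CPM, by size of fold change, are named. Genes outside that rule (SLC2A1, SLC16A3, MYC, IDH3B, SDHC, markers given with values and genes that overlap a member) were named after their values were seen. Members and lists were chosen with earlier results of these data known, so no list was tested as a set.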

Additional observations from a re-analysis of the deposited data

How the results depend on the processing

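The count of changed genes was 1941 with all libraries. It was 4841 with the GC correction, 4239 with the replicate block and the GC correction, 5874 with the GC correction and knockout replicate 3 left out, 828 at an adjusted p under 0.01 and 263 in the test against a 1.5-fold change. Under these 5 alternatives the members that rose numbered 3, 2, 4, 0 and 0, and those that fell 10, 11, 15, 1 and 0. Leaving out 1 library gave 779 (without control replicate 2) to 5795 genes (without knockout replicate 3), 0 to 4 members that rose and 1 to 10 that fell. The count of 1 that fell, ALDOC, was obtained without knockout replicate 1 and without each control library in turn. HK1, PGK1 and PFKM were not called there.

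Some members with values near 0 changed sign, and none of the values with the changed sign passed the test. PFKP gave 0.012 with RLE scaling and with DESeq2, 0.044 with the GC correction, 0.043 with block and GC correction and 0.044 with GC correction and replicate 3 left out, and -0.129 to 0.109 over the left-out libraries. PDK3 gave 0.007 with RLE scaling and 0.008 with DESeq2, and PGD -0.003 with library size only. Over the left-out libraries PFKL ran from -0.125 to 0.392, LDHA from -0.243 to 0.142, LDHB from -0.144 to 0.031 and PDK3 from -0.074 to 0.044. In percentage points of the isoform shares, PFKP ran from -0.254 to 1.07, PFKL from -0.142 to 6.85, ENO2 from -0.00256 to 0.00236 and LDHB from -1.68 to 1.62. The cause was not tested.

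Same-numbered libraries did not deviate together (correlations of -0.01, -0.10 and 0.08), so the numbers were not taken as pairs. With the replicate number as a block 1326 genes passed, and 1 member rose and 3 fell, PFKM being lost (edgeR adjusted p = 0.12). Depth limits PFKFB2 and ENO2, which had at most 8 reads per library.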
